A study of Mus musculus with 6 samples.

Results

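Serosal cavity macrophage genes are 10 genes known from the macrophages that live free in the peritoneal and pleural fluid, namely Gata6, Prg4, Alox15, Fn1, F5, F10, Icam2, Selp, Garnl3 and Saa3. They were chosen by gene symbol, and all 10 were found among the 26110 genes listed. RNA-seq had been run on MHCIIhi cells sorted by CX3CR1 from the muscularis externa, the muscle layer of the small bowel wall that holds the myenteric plexus. There were 3 CX3CR1- and 3 CX3CR1+ libraries. The labels call the cells dendritic cells, whereas the study's text treats them as macrophages. All mice of both groups were CX3CR1+/GFP, so that 1 copy of Cx3cr1 was replaced by the reporter used for sorting, and neither group had received any treatment. The muscularis externa of 6 mice per group was pooled, and it is not stated whether each library had a pool of its own. The p-values therefore measure the spread between these libraries, which may be technical.

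Macrophages of the serosal cavities are usually split into large cells, which depend on the transcription factor GATA6, and small cells, which carry more MHC class II and arise from monocytes. Retinoic acid, made by mesothelial and stromal cells of the omentum and peritoneum, is known to switch on Gata6 in the large cells. Their known programme includes adhesion molecules, coagulation factors and the lubricant proteoglycan 4. The outer surface of the bowel wall is covered by mesothelium and faces the peritoneal fluid. Each of the 10 genes is also made by other cells, such as fibroblasts, endothelium or liver, so the name tells where the genes are known from and is no cell type given to a library.

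The sort marker behaved as the labels say. Cx3cr1 was at 23.2, 18.9 and 28.5 in CX3CR1- libraries, against 371, 380 and 347 in CX3CR1+ libraries. These are values normalized between libraries by the authors, as are all levels given here. The libraries held about 5346379 to 17616748 reads, and 3 reads were worth 1.39 to 5.36, which was taken as the lowest measurable level. Mitochondrial genes took 47.5 to 54.9% of the values in CX3CR1- libraries and 18.1 to 21.2% in CX3CR1+ libraries. With totals made equal without the mitochondrial genes, Gata6, Fn1, F5, F10, Icam2 and Selp were called higher, as they were without that change.

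Of the 10 genes, 9 averaged 10 or more across all libraries and were tested. Gata6, Fn1, F5, F10, Icam2 and Selp were called higher in CX3CR1- cells, that is, with a log2 fold change of 1 or more at an adjusted p no higher than 0.05 (limma, Benjamini-Hochberg adjustment over 17812 genes). None was called lower. Prg4, Garnl3 and Saa3 were not called, and Alox15 was too low to be tested. Those 6 calls of 9 stand beside 20.4% of all tested genes called, 12.2% higher and 8.15% lower. In 7 of the 10 genes every CX3CR1- library lay above every CX3CR1+ library, which was so for 20.3% of all tested genes. The reverse order held for 19.8%, so that the groups did not overlap in 40% of tested genes. Gata6, F5, Icam2 and Selp had a CX3CR1+ mean under 10, so these 4 entered the test through the CX3CR1- libraries alone and had to differ in some measure. The median log2 fold change was 2.52 over the 9 genes and -0.0035 over all tested genes. Throughout, a positive log2 fold change means higher in CX3CR1- cells, on the scale of log2(value + 1), which understates the change of low genes.

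**Figure D1:**
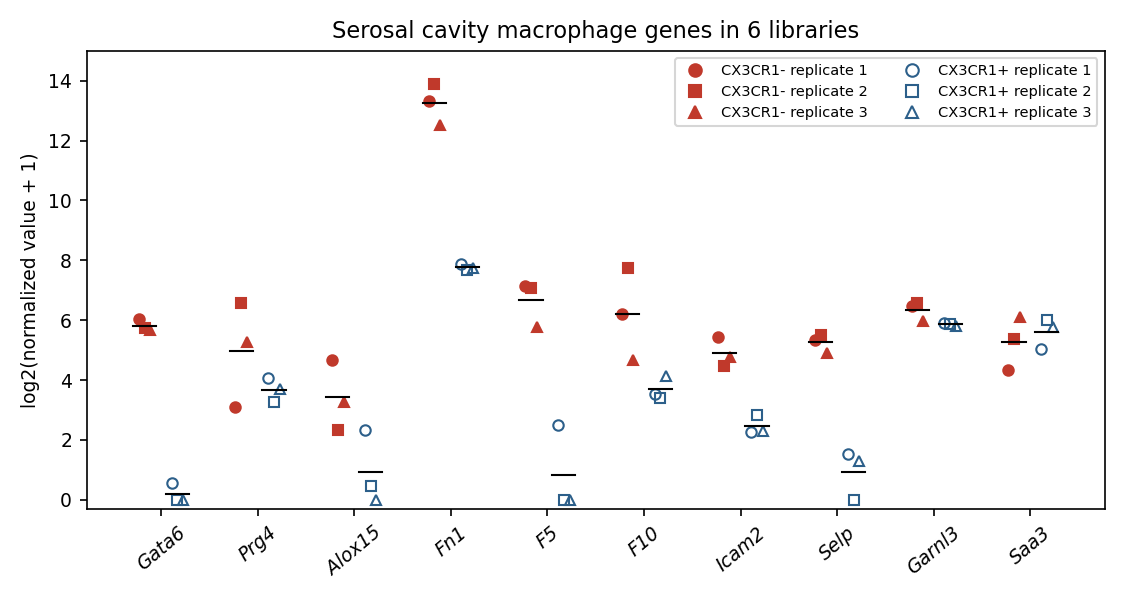
Log2(normalized value + 1) of each of the 10 genes, with 1 point per library and a bar at the mean of the 3 log2 values of each group. Gata6, Fn1, F5, F10, Icam2, Selp and Garnl3 show no overlap between the groups, whereas Prg4, Alox15 and Saa3 do.

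Gata6, the transcription factor that large cavity macrophages need, was close to absent from the CX3CR1+ libraries. It was at 64.7, 51.9 and 49.9 in CX3CR1- libraries, against 0.463, 0 and 0 in CX3CR1+ libraries. All 3 CX3CR1+ values lay at or under the level of 3 reads, and Gata6 was the only one of the 10 genes of which this was so. About 141 reads stood against 1, a ratio of 229 after correction for depth (95% exact counting interval 40.4 to 9095). The fitted log2 fold change was 5.63 ± 0.66 (SE), with an adjusted p of 0.000194 (limma). Gata6 is overlapped on the opposite strand by 1010001N08Rik, which was at 6.49, 16.7 and 4.65 in CX3CR1- libraries, against 0 in each CX3CR1+ library. The library kit does not mark strand, and 1.02% of the 31-base words of Gata6 also occur in other genes.

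The other GATA factors were measured as a list of 5, of which 4 were in the table and 3 were tested. Gata5 (log2 fold change 2.65) and Gata3 (2.61) were called higher. Gata4 was not called (1.13, adjusted p = 0.173, limma). Gata2 was too low for the test, at 29.6, 21.9 and 5.36 in CX3CR1- libraries and 1.32, 0 and 0 in CX3CR1+ libraries. The list's median was 2.61, and between 1 and 3 of its genes were called higher in the alternative fits, except that none could be tested with a mean of at least 50. Gata3 entered the test through the CX3CR1- libraries alone.

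Genes that supply retinoic acid were higher in CX3CR1- cells, and the receptors that could be tested were not called. Of 12 listed genes 11 were in the table and 10 were tested, with 6 called higher, none lower and a median of 1.54. Cyp26b1 and Wt1 entered the test through the CX3CR1- libraries alone. The largest changes were those of Cyp26b1, which breaks retinoic acid down (5.44), and Aldh1a2, which makes it (4.34). Aldh1a2 was at 989, 941 and 710.0 in CX3CR1- libraries against 44.9, 36.9 and 45.3 in CX3CR1+ libraries. Wt1, a transcription factor of mesothelium and fibroblasts of the cavity wall, was at 46.1, 21.0 and 26.5 against 0.963, 3.97 and 0.928. The receptors Rara, Rarg, Rxra and Rxrb made up the 4 genes without a call. Rarb, itself a gene of cavity macrophages, was untested at 16.04, 21.6 and 8.10 against 2.08, 0.896 and 2.30, and it was called higher when no filter on low values was used.

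Among the coagulation genes, F5, the cofactor of the prothrombin-cleaving complex, was at 139.8, 134 and 53.8 in CX3CR1- libraries. It was at 4.63, 0 and 0 in CX3CR1+ libraries. About 263 reads stood against 10, a ratio of 42.6 after correction for depth (95% exact counting interval 22.8 to 90.0), and all CX3CR1+ reads came from replicate 1. The log2 fold change was 5.83 ± 0.78 (SE), with an adjusted p of 0.00042 (limma).

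F10, the protease of the same complex, was at 73.5, 213 and 24.4 in CX3CR1- libraries, against 10.7, 9.49 and 16.4 in CX3CR1+ libraries. The groups did not overlap, but the CX3CR1- libraries lay 8.76-fold apart. Its log2 fold change was 2.52 ± 0.68 (SE), with an adjusted p of 0.0211 (limma) and a range of 0.00317 to 0.0707 over the alternatives. The call was lost in turn without CX3CR1- replicate 1 (log2 fold change 2.52) or replicate 2 (1.75), and without CX3CR1+ replicate 1 (2.45) or replicate 2 (2.37). F7, which starts the cascade with tissue factor and lies 1499 bases from F10, was untested at 1.04, 8.94 and 16.95 against 0.463, 0 and 1.42.

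The rest of the coagulation and fibrinolysis genes did not move as 1 block. Of 25 listed, 19 were in the table and 12 were tested, of which 4 were called higher, 1 lower and 7 neither, with a median of 0.70. Plat, the tissue-type plasminogen activator (2.54), and Procr, the endothelial protein C receptor (1.88), rose most. Plau, the urokinase-type plasminogen activator, fell by 3.72, from 2040.1, 3450.4 and 2494 in CX3CR1+ libraries to 196, 154 and 250.03 in CX3CR1- libraries. F13a1, the transglutaminase that cross-links fibrin, was not called (-0.68).

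Selp encodes P-selectin, which binds leukocytes on platelets and endothelium and is also known from large cavity macrophages. It was at 39.7, 44.9 and 29.0 in CX3CR1- libraries, against 1.88, 0 and 1.44 in CX3CR1+ libraries. About 92 reads stood against 5, a ratio of 29.8 after correction for depth (95% exact counting interval 12.3 to 94.1). Its log2 fold change was 4.32 ± 0.70 (SE), with an adjusted p of 0.00144 (limma). Of its 31-base words 12.5% also occur in other transcripts, more than for any other of the 10 genes. They lie mainly in Gm16548 and Gm16587, for which no level could be read.

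Icam2, a ligand of the integrin LFA-1, was at 42.8, 21.1 and 26.4 in CX3CR1- libraries, against 3.85, 6.08 and 3.93 in CX3CR1+ libraries. The groups did not overlap, and CX3CR1+ replicate 3 lay under the level of 3 reads. The log2 fold change was 2.43 ± 0.56 (SE), with an adjusted p of 0.00976 (limma).

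Of the 10 other selectins, ICAMs and their ligands 9 were in the table and 8 were tested, of which 3 were called higher and none lower, with a median of 0.98. Cd209a, a lectin of dendritic cells and monocytes, had a log2 fold change of 4.99. Icam1, the paralogue of Icam2, was not called (-0.40, adjusted p = 0.150, limma). Sele, the endothelial selectin, was untested at 0, 16.1 and 3.99 against 0.925, 0.820 and 4.25.

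Selp and F5 are neighbours on the same strand of chromosome 1 in GRCm38, with Selp at chr1:164115264-164150026 and F5 starting 1812 bases behind it, at chr1:164151838-164220277. Their promoter windows, and that of Saa3, whose level did not differ detectably, are shown because F5 and Selp were called higher while Saa3 was not. Each holds the 250 bases before the RefSeq start site on the gene's own strand in GRCm38.p6, at chr1:164115014-164115263 for Selp, chr1:164151585-164151834 for F5 and chr7:46715677-46715926, minus strand, for Saa3. Capitals mark a GATA word, that is AGATAA or AGATAG or TGATAA or TGATAG on either strand.
Selp: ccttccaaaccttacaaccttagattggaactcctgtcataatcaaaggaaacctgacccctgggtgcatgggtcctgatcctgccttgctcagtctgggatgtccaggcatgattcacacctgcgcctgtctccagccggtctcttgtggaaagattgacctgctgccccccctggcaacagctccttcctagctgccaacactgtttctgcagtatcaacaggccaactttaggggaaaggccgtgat
F5: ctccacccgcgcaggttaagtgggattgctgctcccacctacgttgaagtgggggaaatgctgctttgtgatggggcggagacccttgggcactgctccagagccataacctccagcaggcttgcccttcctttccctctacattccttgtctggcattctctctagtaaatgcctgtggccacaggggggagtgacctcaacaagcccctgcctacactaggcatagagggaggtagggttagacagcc
Saa3: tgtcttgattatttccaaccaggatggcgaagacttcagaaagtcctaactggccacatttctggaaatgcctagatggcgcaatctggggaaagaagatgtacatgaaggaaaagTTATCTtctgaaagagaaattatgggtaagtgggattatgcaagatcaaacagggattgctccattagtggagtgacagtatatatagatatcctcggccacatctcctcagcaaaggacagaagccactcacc
Windows were matched by symbol for 5 of the 10 genes (F5, F10, Selp, Garnl3 and Saa3), with 6 windows in all because Garnl3 had a pair. Only that of Saa3 held such a word, AGATAA on the opposite strand, 134 bases before the start. The same words were found in 26.5% of 32851 promoter windows searched. A missing word says only that these letters are not in the window.

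Fn1 encodes fibronectin, an adhesive matrix glycoprotein. It was at 10317, 15263 and 5930.0 in CX3CR1- libraries, against 235, 205 and 213 in CX3CR1+ libraries. The lowest CX3CR1- library still lay far above the highest CX3CR1+ library. The log2 fold change was 5.48 ± 0.29 (SE), with an adjusted p of 2.69e-06 (limma). The gene lies at chr1:71585520-71653200 on the minus strand.

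Integrins that bind fibronectin were called in both directions. All 9 listed were tested, of which 3 were higher, 3 lower and 3 neither, with a median of -0.25. Itgb6, the epithelial partner of the alpha v chain (3.69), and Itgb7, a chain of gut-homing lymphocytes and dendritic cells (3.64), rose most. Itgb6 entered the test through the CX3CR1- libraries alone. Itgb5 fell by 3.04 and Itgav, its alpha chain, by 1.60. Itga5 and Itgb1, which together form the classical fibronectin receptor, were not called (-0.91 and -0.25).

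Prg4 encodes proteoglycan 4 or lubricin, the lubricant of joints and serous surfaces. It was at 7.52, 94.0 and 37.2 in CX3CR1- libraries, against 15.8, 8.58 and 11.97 in CX3CR1+ libraries. CX3CR1- replicate 1 lay below all CX3CR1+ libraries, and the other two lay above them. The log2 fold change was 1.30 ± 0.78 (SE, 95% interval -0.44 to 3.03), with an adjusted p of 0.270 (limma) and a range of 0.0202 to 0.651 over the alternatives. Without CX3CR1- replicate 1 it was 2.24, with an adjusted p of 0.0202, and passed the threshold. Prg4 shares 4.96% of its 31-base words with other genes, mainly Tpr, whose exons it overlaps on the opposite strand and which was not called (-0.38, adjusted p = 0.0937, limma).

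Alox15 encodes the 12/15-lipoxygenase of macrophages and eosinophils. It was at 24.3, 3.99 and 8.70 in CX3CR1- libraries, against 4.04, 0.366 and 0 in CX3CR1+ libraries. CX3CR1- replicate 2 lay below CX3CR1+ replicate 1, so the groups overlapped, and an exact two-sided permutation test gave p = 0.2, where the smallest p that 3 against 3 allows is 0.1. At this depth a difference was not detectable. Of the other lipoxygenases and partners of 5-lipoxygenase 8 of 9 were in the table and 7 were tested, with a median of -0.30. Lta4h, which makes leukotriene B, was called higher (1.02), whereas Ltc4s, which makes the cysteinyl leukotrienes (-2.39), and Alox5 (-1.74) were called lower. The call of Lta4h was lost in some alternatives. Alox12, the neighbouring platelet-type gene, was not called (-0.30).

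Garnl3, a protein with a GTPase-activating domain of the Rap type, was at 87.0, 94.4 and 61.9 in CX3CR1- libraries, against 59.5, 57.4 and 54.6 in CX3CR1+ libraries. The groups did not overlap, but CX3CR1- replicate 3 was only just above the CX3CR1+ libraries. The log2 fold change was 0.48 ± 0.29 (SE, 95% interval -0.18 to 1.13), with an adjusted p of 0.283 (limma). None of the 6 Rap GTPase-activating proteins tested was called in either direction, with a median of -0.29, although an alternative fit could call 1 higher or 1 lower.

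Saa3, a serum amyloid A protein that macrophages and adipose tissue make in inflammation, was at 19.0, 40.3 and 67.1 in CX3CR1- libraries. It was at 32.1, 63.4 and 54.1 in CX3CR1+ libraries, and the groups overlapped throughout. The log2 fold change was -0.35 ± 0.48 (SE, 95% interval -1.43 to 0.73), with an adjusted p of 0.652 (limma), and it was 0.12 without CX3CR1- replicate 1. Of 10 other acute-phase genes 7 were in the table and 4 were tested, with a median of -0.89. Fpr2, a receptor for serum amyloid A, was called lower (-2.94) and none was called higher.

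**Figure D2:**
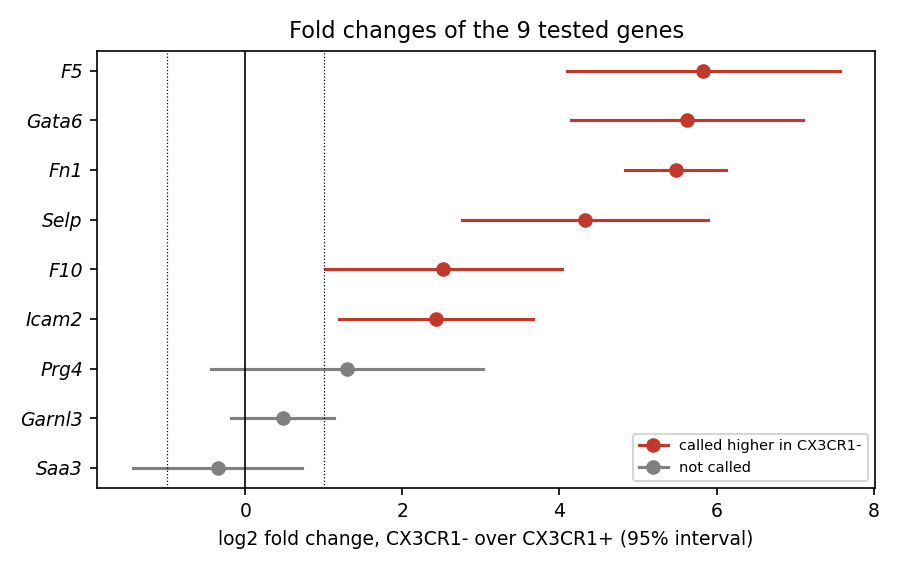
Log2 fold change of the 9 tested genes, CX3CR1- minus CX3CR1+, with 95% intervals from limma. F5 (5.83), Gata6 (5.63) and Fn1 (5.48) lie farthest to the right, an order that changed with a pseudocount of 10, and the intervals of Prg4, Garnl3 and Saa3 include 0.

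The 10 genes did not vary together among the CX3CR1- libraries. Replicate 2 was the highest of the 3 for 5 genes, replicate 1 for 4 and replicate 3 for 1, Saa3. Replicate 3 was the lowest for 6 genes. Gata6 varied least, with a coefficient of variation of 14.52% and a 1.30-fold range, followed by Garnl3 (21.0%) and Selp (21.4%). Prg4 (95.01%) and F10 (94.6%) varied most, and both were highest in replicate 2. Alox15, Icam2, F5 and Gata6 were highest in replicate 1, which held the lowest Prg4 and Saa3. In the CX3CR1+ libraries 4 of the genes (Gata6, Alox15, F5 and Selp) included values of 0.

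**Figure D3:**
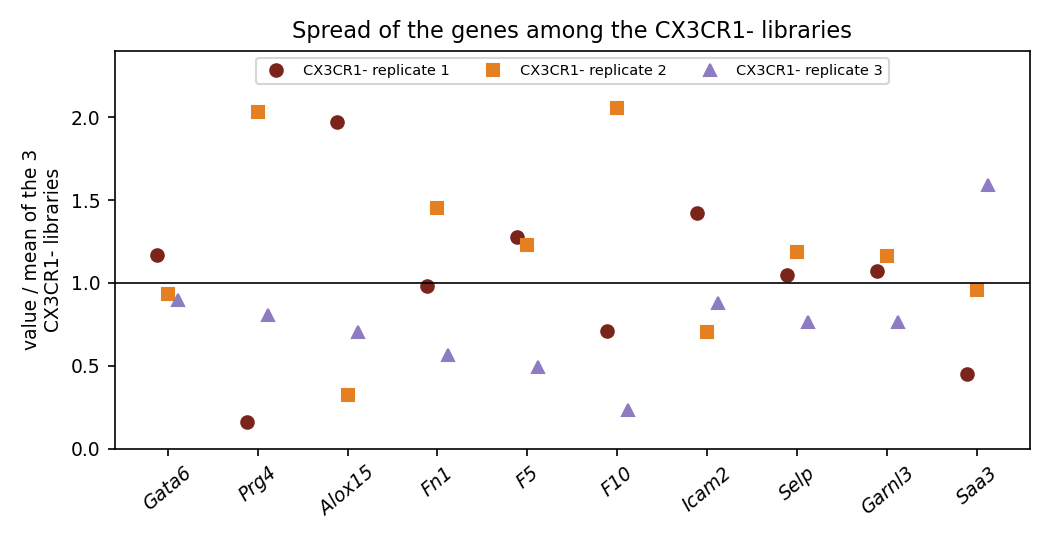
Value of each gene in each of the 3 CX3CR1- libraries, as a ratio to the mean of these libraries. Gata6 stays between 0.899 and 1.17 of its mean, whereas Prg4 runs from 0.163 to 2.03 and F10 from 0.235 to 2.06.

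Other genes known from GATA6+ cavity macrophages were mostly higher in CX3CR1- cells, with exceptions. Of 16 listed, 15 were in the table and 12 were tested, of which 8 were called higher, 1 lower and 3 neither, with a median of 2.07. Naip1, Nt5e and Ptgis, among the genes called higher, and Cxcl13, which was not called, had a CX3CR1+ mean under 10 and entered the test through the CX3CR1- libraries alone. Between 6 and 9 were called higher in the alternatives that kept the filter at a mean of 10 or removed it, and 4 of 7 tested with a mean of at least 50 (Aspa, Bhlhe40, Tgfb2 and Timd4). Bhlhe40, a transcription factor that keeps these cells dividing, was at 1803, 2136 and 2006 against 97.4, 106 and 123 (log2 fold change 4.18). Ptgis, the prostacyclin synthase, followed (2.93). Timd4, a phosphatidylserine receptor of resident macrophages, was at 363, 629 and 810 against 160, 125 and 132 (2.04). Itga6, the integrin alpha 6 chain, fell by 2.85, from 922, 798 and 772 to 109, 154 and 87.7. The genes without a call were Ltbp1, Cxcl13 and Thbs1. Vsig4, a complement receptor of large cavity macrophages, was untested at 1.04, 5.36 and 1.99 against 1.87, 1.64 and 2.83, with 5 or fewer reads in each library. Serpinb2, a plasminogen activator inhibitor abundant in peritoneal macrophages, was likewise untested at 1.40, 13.3 and 13.1 against 0, 1.10 and 0.

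Genes of small cavity macrophages rose as well. All 7 were tested, and 5 were called higher and none lower, with a median of 1.35. Of those called, Cd226 had a CX3CR1+ mean under 10 and entered the test through the CX3CR1- libraries alone. Retnla, a secreted protein of alternatively activated macrophages (7.78), was at 6920.0, 9603 and 4955 against 54.6, 39.4 and 12.7, and Cd226, an adhesion receptor, had a log2 fold change of 5.61. Their summed level was 9248 to 15326 in CX3CR1- libraries and 2456 to 2772 in CX3CR1+ libraries. General macrophage markers went the other way. All 7 were called lower, with a median of -2.51 and sums of 3721 to 4441 against 19024 to 20523. Cx3cr1 is among these 7, and since the cells were sorted by its reporter, its lower level was set by the sort. Adgre1, which encodes F4/80 and is abundant on large cavity macrophages, was at 396, 397 and 383 against 3461, 3522 and 3390.1. Gata6 and Adgre1, both known to be high in large cavity macrophages, thus differed in opposite directions between these libraries.

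**Figure D4:**
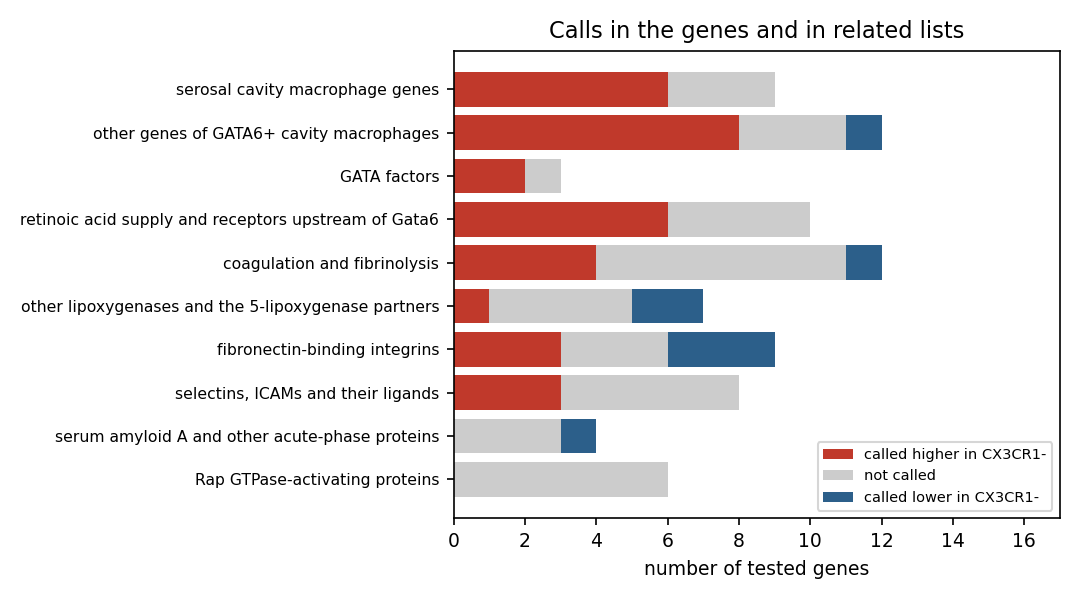
Number of genes called higher, lower or neither in CX3CR1- cells for the 10 genes and for the related lists. Of the other cavity macrophage genes 8 of 12 were higher, whereas fibronectin-binding integrins split into 3 higher, 3 lower and 3 neither.

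Several lists of other cell types' markers differed between the groups mostly in the same direction as the cavity macrophage genes, and in bulk samples fewer cells of a type and less RNA per cell cannot be told apart. Beside Gata6, which gut epithelium can express, stood the 6 epithelial markers. All 6 were higher, 5 of them with a CX3CR1+ mean under 10, with sums of 15636 to 26666 against 20.3 to 39.8, led by Fabp2 (12.06) and Krt20 (10.10). Beside Fn1 and Prg4 stood the fibroblast markers, of which 6 of 6 were higher, with sums of 4117 to 12168 against 181 to 316. Pdgfra (5.45) and Lum (5.27) rose most. Beside Prg4 and Wt1 stood the mesothelial markers, of which 2 of 6 tested were higher, Krt19 (6.10) and Wt1 (3.52), and between 2 and 5 in the alternatives, except that only Krt19 of 2 tested was higher with a mean of at least 50. Both entered the test through the CX3CR1- libraries alone. The sums of the mesothelial markers were 226 to 1094 against 30.6 to 109, with the highest in CX3CR1- replicate 1. The defining mesothelial gene Msln was at 33.4, 0 and 0.997 in CX3CR1- libraries, against 5.55, 2.46 and 4.25 in CX3CR1+ libraries, so that its groups overlapped.

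Selp, Icam2 and F5 are also endothelial or platelet genes. Endothelial markers were higher in 4 of 6, with sums of 844 to 1099 against 348 to 612, led by Emcn (5.41) and Cdh5 (4.26), both of which entered the test through the CX3CR1- libraries alone. Platelet and megakaryocyte markers went the other way in sum, but not gene by gene. Of 6 listed, 5 were in the table, 3 were tested, and Pf4 (-2.55) and Ppbp (-2.49) were lower, with sums of 277 to 526 against 1817 to 2374. Pf4 made up most of the CX3CR1+ sums, with a mean log2(value + 1) of 11.05 there. Gp1ba was not called (-0.36). Itga2b was untested at 11.9, 0.706 and 22.0 in CX3CR1- libraries, against 4.88, 10.3 and 3.42 in CX3CR1+ libraries. Gp9 was untested too, at 0, 8.94 and 0 against 1.39, 0 and 2.83. Ppbp entered the test through the CX3CR1+ libraries alone, and only Pf4 was called lower in every alternative. Beside Alox15 stood the eosinophil markers, of which 3 of 6 were in the table and the 1 tested, Siglecf (2.89), was higher, though not in every alternative. Their sums were 21.5 to 80.3 against 3.19 to 6.86, and Prg2, a granule protein that defines eosinophils, was at 10.4, 16.1 and 6.98 in CX3CR1- libraries, against 0 in all CX3CR1+ libraries. Siglecf entered the test through the CX3CR1- libraries alone.

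F10 and Fn1 are known from monocytes too. Monocyte markers were higher in 4 of 6 tested, led by Plac8 (6.45), with sums of 2647 to 4737 against 2352 to 2431. Dendritic cell markers were higher in 6 of 7, led by Cd209a (4.99) and Clec9a (4.24), with sums of 3201 to 3816 against 402 to 440.0. Markers of B and plasma cells were higher in 5 of 6, among them Jchain (7.003), with sums of 1672 to 3867 against 68.7 to 97.3. The part of these cell types in the levels of the cavity macrophage genes was not tested.

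**Figure D5:**
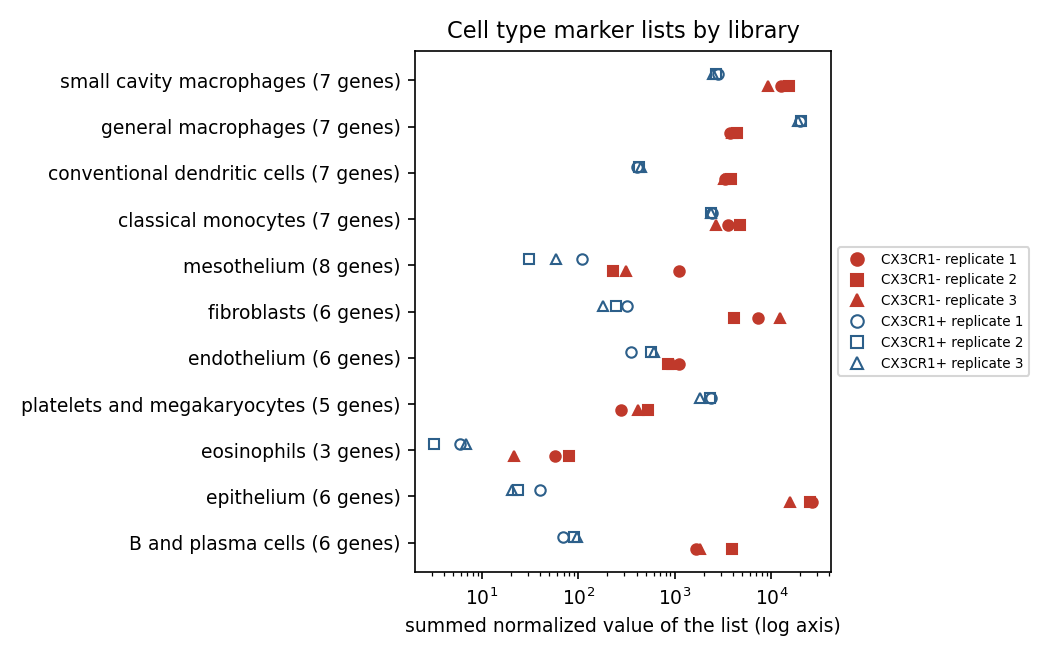
Summed normalized value of each marker list in each library, on a log axis, with 1 point per library. Epithelial, fibroblast and B cell sums lie higher in all 3 CX3CR1- libraries, whereas general macrophage and platelet sums lie lower.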

How the data were processed

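Bulk RNA-seq was analysed in 3 CX3CR1- and 3 CX3CR1+ libraries, grouped by sample title. The authors pseudoaligned single reads with Kallisto to GENCODE release M16 transcripts (mm10 per the labels), imported estimated counts with tximport followed by DESeq2 normalization. Each deposited value is this normalized signal of a gene. Because only 42.5 to 44.6% of values were whole multiples of the value of 1 read (tolerance 0.01), no count test was run. That step gave the approximate reads, and intervals and floors cover counting error only.

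Genes with a mean of at least 10 were tested on log2(value + 1) with limma 3.58.1 in R 4.3.3 (intensity trend, two-sided, Benjamini-Hochberg adjustment over 17812 genes). Calls needed a log2 fold change of 1 or more in either direction at an adjusted p no higher than 0.05. Exact two-sided permutation tests over the 6 libraries cannot go below 0.1. On simulated data the same fit called 56.3% of 183 changed genes that were tested, with 5 false calls. It called 59.6% of 8-fold and 52.4% of 4-fold changes, so a gene without a call may still differ.

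The members and lists were chosen with earlier results of these data known. Named are all 10 members, the 2 called genes with the largest change in each direction per list, paralogues of members, Cx3cr1 and markers at 0. Other named genes (untested list genes, list genes without a call, neighbouring or overlapping genes, and Timd4 and, in the retinoic acid list, Wt1, given for their levels) were chosen after their values were seen. Positions, overlaps and shared 31-base words came from GENCODE release M21 (GRCm38), promoters from RefSeq. The position of Gata6 and the values of some list genes are not reported here. Among the symbols, 23 occur more than once, and none of them is a member. Alternatives changed the pseudocount, filter, scaling, trend, library weights, a block and the libraries included. Plots were drawn with matplotlib 3.10.9.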

Additional observations from a re-analysis of the deposited data

How the results depend on the processing

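Gata6, Fn1, F5, Icam2 and Selp kept their direction and their call in every alternative in which they could be fitted, and Garnl3 was called in none. A pseudocount of 10 lowered the log2 fold change of Gata6 to 2.68, of F5 to 3.29, of Selp to 2.10 and of Icam2 to 1.42, whereas Fn1 (5.43) hardly moved and then ranked first. With a mean of at least 50 as the filter, Gata6, Prg4, Icam2, Selp and Saa3 could not be fitted because their means are lower. Of the 4 members then left 3 were called with a median of 4.003, and 2413 genes were called in all, 1232 of them higher, against 3628 and 2177. Leaving out 1 library at a time gave 2771 to 3869 called genes, 5 to 6 called members and a median of 2.45 to 3.29. F10 lost its call with quantile normalization (2.16) and without the intensity trend (2.52), and ranged from 1.75 to 3.29 with 1 library left out. Prg4 ranged from 0.50 to 2.24 and Saa3 from -0.77 to 0.12, both with their highest value without CX3CR1- replicate 1. The cause was not tested. The median of all genes moved to -0.15 with quantile normalization and to 0.17 with equal totals without mitochondrial genes, and no member changed direction with either. The labels give the groups no shared replicate number. A block of adjacent library numbers, which may not pair the libraries, changed no call of a member. Depth limits Alox15, Vsig4 and other genes near 3 reads.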
